A study of Mus musculus with 12 samples.

Results

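The genes described here are 36 cell cycle and proliferation genes, chosen by symbol as a list that spans DNA replication licensing, nucleotide supply, the mitotic cyclins and kinases, kinetochores, the spindle and the anaphase promoting complex. Of these, 35 were paired with a probe set by the platform annotation, out of 24704 named genes, and 1 was not analysed here. The study measured whole mouse lung on Affymetrix arrays, with 12 arrays in 4 groups of 3. All mice carried floxed Nfat5 (Nfat5fl/fl), the gene of a transcription factor known for switching on protective genes under osmotic stress. Nfat5(EC)-/- mice, called knockouts here, had lost it in endothelial cells after 1 mg tamoxifen a day for 5 days at 10 to 12 weeks of age, and the Nfat5fl/fl controls had received only the solvent miglyol. After 2 to 3 weeks of recovery, mice of both genotypes breathed normal air or were held in hypoxia over 21 days, which models pulmonary hypertension.

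The groups have limits as models. Only knockouts received tamoxifen, so deletion and drug cannot be told apart, and neither labels nor design text name the Cre driver. The mice were male and female, and the sex of each animal is not labelled. The design text speaks of 4 mice per group and says that lungs with contaminating tissue such as thymus, and lungs whose expression responded inadequately to hypoxia, were left out, so the hypoxic animals were chosen in part on what is measured here. The arrays analysed are replicates 1, 2 and 4 of each group, or 2, 3 and 4 in hypoxic knockouts, and values are listed below in that order. Nfat5 read 9.01, 9.39 and 8.92 in normoxic controls, 8.61, 8.16 and 8.51 in hypoxic controls, 8.59, 8.80 and 8.62 in normoxic knockouts and 8.17, 8.46 and 8.40 in hypoxic knockouts. It was lower in all 3 normoxic knockouts than in the normoxic controls, but the difference of -0.44 ± 0.15 (limma, adjusted p = 0.62) did not pass the test, and whether the probe set lies in the deleted part is not given. In hypoxia the arrays of the genotypes overlapped, with a difference of -0.08 ± 0.15 (adjusted p = 0.97), so Nfat5 does not check the genotype labels of the hypoxic arrays. Markers of lung epithelium and endothelium had high levels. The mean log2 level of 7 alveolar type 2 markers lay between 12.0 and 12.15 in the hypoxic controls and that of 11 endothelial markers between 9.96 and 10.2.

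A dividing cell first loads the MCM helicase onto replication origins, then copies its DNA using deoxynucleotides made by ribonucleotide reductase and thymidylate synthase, and then condenses, aligns and separates its chromosomes under the control of cyclin dependent, Polo and Aurora kinases. Transcripts of these genes are low in resting cells and rise in waves, those of S phase under E2F factors and those of G2 and M phase under FOXM1 and the B-MYB complex. In an adult lung few cells divide, and in rodents chronic hypoxia is known to bring vascular smooth muscle cells, endothelial cells and fibroblasts back into cycle for a time. RNA of whole tissue cannot tell whether more cells of a type are present or each cell holds more of the RNA.

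All values are log2 levels as deposited, and a difference of 1 is a doubling. They were compared with limma, a linear model fitted to all 24704 genes with 1 shared design of 4 group means, and a gene was called where its Benjamini-Hochberg adjusted p over all genes was under 0.05. Errors of differences are limma's standard errors, and all tests were two-sided. With 3 arrays per group, the number of arrays limits the precision: the 95% interval of a single gene's change within a genotype reached 0.34 to either side at the median of the 35 genes. The 35 genes had mean levels from 3.18 for Birc5 to 9.63 for Pcna, and 21 of them had a mean at or over 4.55, the median of all values in the table.

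Averaged over both genotypes, 9 of the 35 cell cycle genes (25.7%) differed between hypoxia and normoxia, against 14.7% of all genes. Of the 9 genes, 8 rose, a direction called in 7.27% of all genes, and 1 fell, a direction called in 7.40% of all genes. The 8 that rose were the helicase subunits Mcm2, Mcm3 and Mcm5, the mitotic kinase Plk1, the checkpoint kinase Bub1b, the chromosomal passenger subunit Cdca8, the spindle assembly factor Tpx2 and the ubiquitin conjugating enzyme Ube2c. Pcna, the sliding clamp of DNA polymerases, fell. The differences were small, from 0.24 for Bub1b to 0.59 for Mcm5 among those that rose. Over the 35 genes the median difference was 0.23, beside 0.01 over all genes, and 29 genes lay above 0 (82.9%, against 52% of all genes). The list was chosen with earlier results of these data known, so these shares and those below are not a test of it.

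Mki67 and Top2a, the usual marker genes of cycling cells, did not pass the test. The averaged difference of Mki67, which encodes a protein that coats mitotic chromosomes, was 0.03 ± 0.13 with a 95% interval from -0.25 to 0.31. That of Top2a, the enzyme that untangles DNA in replication and mitosis, was 0.07 ± 0.17 with an interval from -0.30 to 0.45. Both intervals include changes of the size called for Bub1b and Cdca8, and neither includes that of Mcm5. The heat map shows the 35 genes in the 12 arrays.

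**Figure D1:**
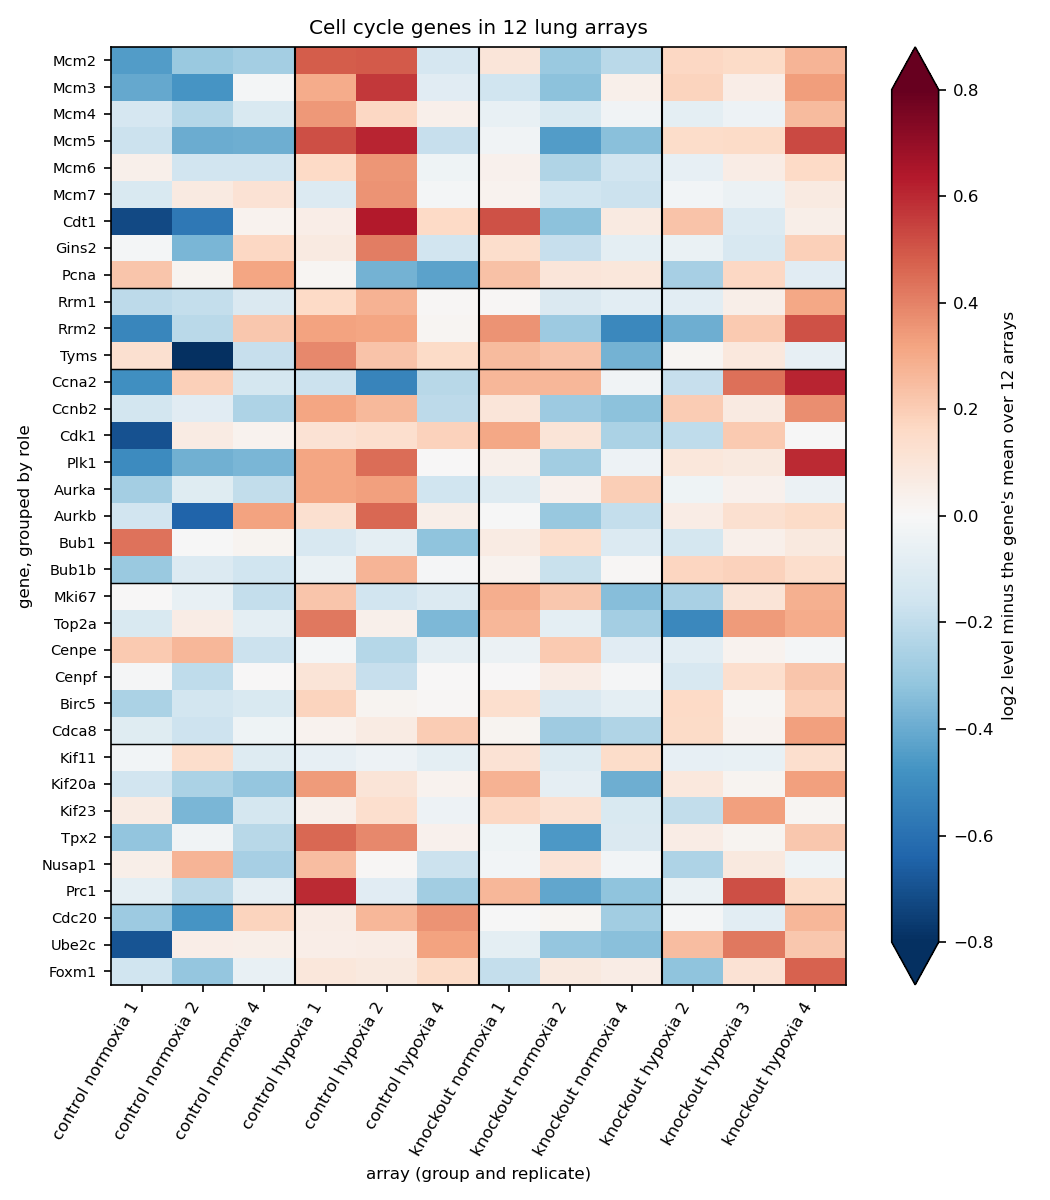
Heat map of 35 cell cycle genes (rows, grouped by role with horizontal lines) in 12 arrays (columns, 4 groups of 3). Colour is the log2 level minus the gene's mean over the 12 arrays, red above and blue below. The rows of Mcm2 to Mcm6 and Plk1 are mostly blue in normoxic controls and red in hypoxic controls 1 and 2. The Mcm7 and Mki67 rows have no such split, and in the Top2a row normoxic control 2 lies above hypoxic control 2.

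Cell cycle transcription is known to run through short promoter elements, so the promoters of the genes with the smallest averaged p-values are shown. Each is 300 bases, 250 before to 50 after the start of the gene, from RefSeq on GRCm38.p6, and 28 of the 35 genes had an entry in that table. Tpx2 had none. Capitals mark TTTGAA (the core of the cell cycle genes homology region, or CHR), CCAAT (the CCAAT box, bound by NF-Y) and the E2F cores TTCCCGC and TTGGCGC, found on either strand. Where motifs share letters, as TTTGAA and a CCAAT box on the other strand do in Cdca8 and as TTGGCGC does with its own reverse in Mcm3, the run of capitals covers both. The promoter of Plk1 lies at chr7:122159185-122159484 on the plus strand, that of Mcm5 at chr8:75109259-75109558 on the plus strand, that of Mcm2 at chr6:88898731-88899030 on the minus strand, that of Mcm3 at chr1:20820263-20820562 on the minus strand and that of Cdca8 at chr4:124936868-124937167 on the minus strand.
Plk1: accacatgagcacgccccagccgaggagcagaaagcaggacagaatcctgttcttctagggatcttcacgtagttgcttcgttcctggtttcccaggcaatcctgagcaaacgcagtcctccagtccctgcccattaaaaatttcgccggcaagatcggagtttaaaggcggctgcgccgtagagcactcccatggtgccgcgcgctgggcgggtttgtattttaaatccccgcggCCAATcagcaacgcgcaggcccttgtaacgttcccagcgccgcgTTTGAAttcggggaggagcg
Mcm5: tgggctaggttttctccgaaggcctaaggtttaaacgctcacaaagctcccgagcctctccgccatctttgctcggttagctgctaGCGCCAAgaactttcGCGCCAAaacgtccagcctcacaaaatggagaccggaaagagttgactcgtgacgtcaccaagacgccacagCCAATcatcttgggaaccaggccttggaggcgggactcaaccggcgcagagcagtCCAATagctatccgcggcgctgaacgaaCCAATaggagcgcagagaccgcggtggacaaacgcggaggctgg
Mcm2: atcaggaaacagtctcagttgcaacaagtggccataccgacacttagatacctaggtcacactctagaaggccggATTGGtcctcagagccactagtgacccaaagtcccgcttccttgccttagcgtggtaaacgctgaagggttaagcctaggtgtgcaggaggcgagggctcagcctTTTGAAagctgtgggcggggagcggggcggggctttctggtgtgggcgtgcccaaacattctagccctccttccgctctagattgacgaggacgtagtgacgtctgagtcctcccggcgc
Mcm3: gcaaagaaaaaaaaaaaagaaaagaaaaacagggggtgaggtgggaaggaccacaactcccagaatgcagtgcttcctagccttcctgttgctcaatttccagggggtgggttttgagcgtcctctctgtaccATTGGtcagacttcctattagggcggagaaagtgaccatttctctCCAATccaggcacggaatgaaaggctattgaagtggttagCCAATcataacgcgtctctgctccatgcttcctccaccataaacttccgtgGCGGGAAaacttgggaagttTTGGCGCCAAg
Cdca8: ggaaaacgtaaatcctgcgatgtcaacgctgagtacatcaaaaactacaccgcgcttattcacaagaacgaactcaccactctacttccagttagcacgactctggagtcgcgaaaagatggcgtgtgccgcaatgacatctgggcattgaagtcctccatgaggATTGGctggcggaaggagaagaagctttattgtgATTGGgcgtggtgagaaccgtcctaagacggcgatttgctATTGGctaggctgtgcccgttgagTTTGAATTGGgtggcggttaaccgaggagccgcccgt

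Plk1 and Cdca8 had TTTGAA after the start of the gene, with its first base 30 and 13 bases past it, and each had a CCAAT box before it. Mcm2 also had TTTGAA, 70 bases before the start. Mcm5 and Mcm3 had no TTTGAA but each had 2 copies of TTGGCGC, and Mcm3 had 1 copy of TTCCCGC. Across the 28 promoters, TTTGAA was found in 15 (53.6%), against 18.1% of all 27018 promoters of the same length, and CCAAT in 24 (85.7%, against 37.9%). Both together were found in the same 15 promoters (53.6%, against 7.12%). Either E2F core was found in 8 (28.6%, against 6.93%). The hypoxia response core ACGTG was found in 6 (21.4%, against 19.7%). By role, 5 of the 7 licensing promoters had an E2F core and 1 had TTTGAA, whereas 5 of the 6 promoters of mitotic cyclins and kinases had TTTGAA and 1 had an E2F core. A match of letters does not show that a factor binds there.

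Of the 9 genes of origin licensing and the replication fork, 3 rose and 1 fell in the averaged comparison. Mcm2 to Mcm7 encode the 6 subunits of the replicative helicase. Mcm2 read 5.69, 5.84 and 5.86 in normoxic controls, 6.62, 6.62 and 6.0 in hypoxic controls, 6.23, 5.83 and 5.92 in normoxic knockouts and 6.30, 6.29 and 6.40 in hypoxic knockouts. The 3 hypoxic arrays of each genotype all lay above the 3 normoxic ones, with hypoxic control 4 well below the other hypoxic controls. The difference was 0.62 ± 0.16 in controls (a 1.54-fold rise, adjusted p = 0.029), 0.33 ± 0.16 in knockouts (adjusted p = 0.41) and 0.48 ± 0.11 averaged (adjusted p = 0.016).

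Mcm5 read 5.30, 5.07 and 5.08 in normoxic controls, 5.99, 6.08 and 5.28 in hypoxic controls, 5.44, 5.02 and 5.13 in normoxic knockouts and 5.61, 5.62 and 6.0 in hypoxic knockouts. The knockout groups did not overlap, while hypoxic control 4 read just below normoxic control 1. Mcm5 had the largest averaged difference of the 35 genes, 0.59 ± 0.14 (adjusted p = 0.016), from 0.63 ± 0.20 in controls and 0.55 ± 0.20 in knockouts. Mcm3 read 5.85, 5.79 and 6.25 in normoxic controls, 6.56, 6.83 and 6.17 in hypoxic controls, 6.11, 5.93 and 6.30 in normoxic knockouts and 6.44, 6.32 and 6.60 in hypoxic knockouts. Its control groups overlapped through hypoxic control 4, which lay below normoxic control 4, and its knockout groups did not overlap. Averaged, Mcm3 differed by 0.45 ± 0.12 (adjusted p = 0.031).

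The other 3 helicase subunits stood lower on this scale of change. Mcm4 differed by 0.23 ± 0.07 (adjusted p = 0.060), Mcm6 by 0.21 ± 0.08 (adjusted p = 0.11) and Mcm7 by 0.08 ± 0.09 (adjusted p = 0.62), and none of these passed the test. Mcm4 read 6.72, 6.63 and 6.73 in normoxic controls, 7.20, 7.02 and 6.90 in hypoxic controls, 6.80, 6.74 and 6.83 in normoxic knockouts and 6.78, 6.82 and 7.11 in hypoxic knockouts. In controls its groups did not overlap, but in knockouts 2 of the 3 hypoxic arrays lay within the normoxic range.

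Pcna moved the opposite way to the helicase genes. It read 9.86, 9.65 and 9.95 in normoxic controls, 9.65, 9.25 and 9.20 in hypoxic controls, 9.87, 9.73 and 9.72 in normoxic knockouts and 9.37, 9.80 and 9.54 in hypoxic knockouts. In controls every hypoxic array lay below every normoxic one, although hypoxic control 1 was lower than normoxic control 2 by under 0.01, and in knockouts hypoxic array 3 lay inside the normoxic range. The averaged difference was -0.33 ± 0.10 (adjusted p = 0.046), with -0.45 ± 0.14 in controls and -0.20 ± 0.14 in knockouts. Pcna serves DNA repair as well as replication.

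Cdt1, which loads the helicase onto origins, read 4.48, 4.63 and 5.23 in normoxic controls, 5.26, 5.84 and 5.36 in hypoxic controls, 5.71, 4.88 and 5.28 in normoxic knockouts and 5.43, 5.10 and 5.25 in hypoxic knockouts. Its control groups did not overlap and its knockout groups did, with normoxic knockout 1 above all 3 hypoxic knockouts. The differences were 0.70 ± 0.24 in controls (adjusted p = 0.076) and -0.03 ± 0.24 in knockouts (adjusted p = 0.98). Gins2, a subunit of the GINS complex of the active helicase, differed by 0.11 ± 0.12 averaged (adjusted p = 0.60).

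**Figure D2:**
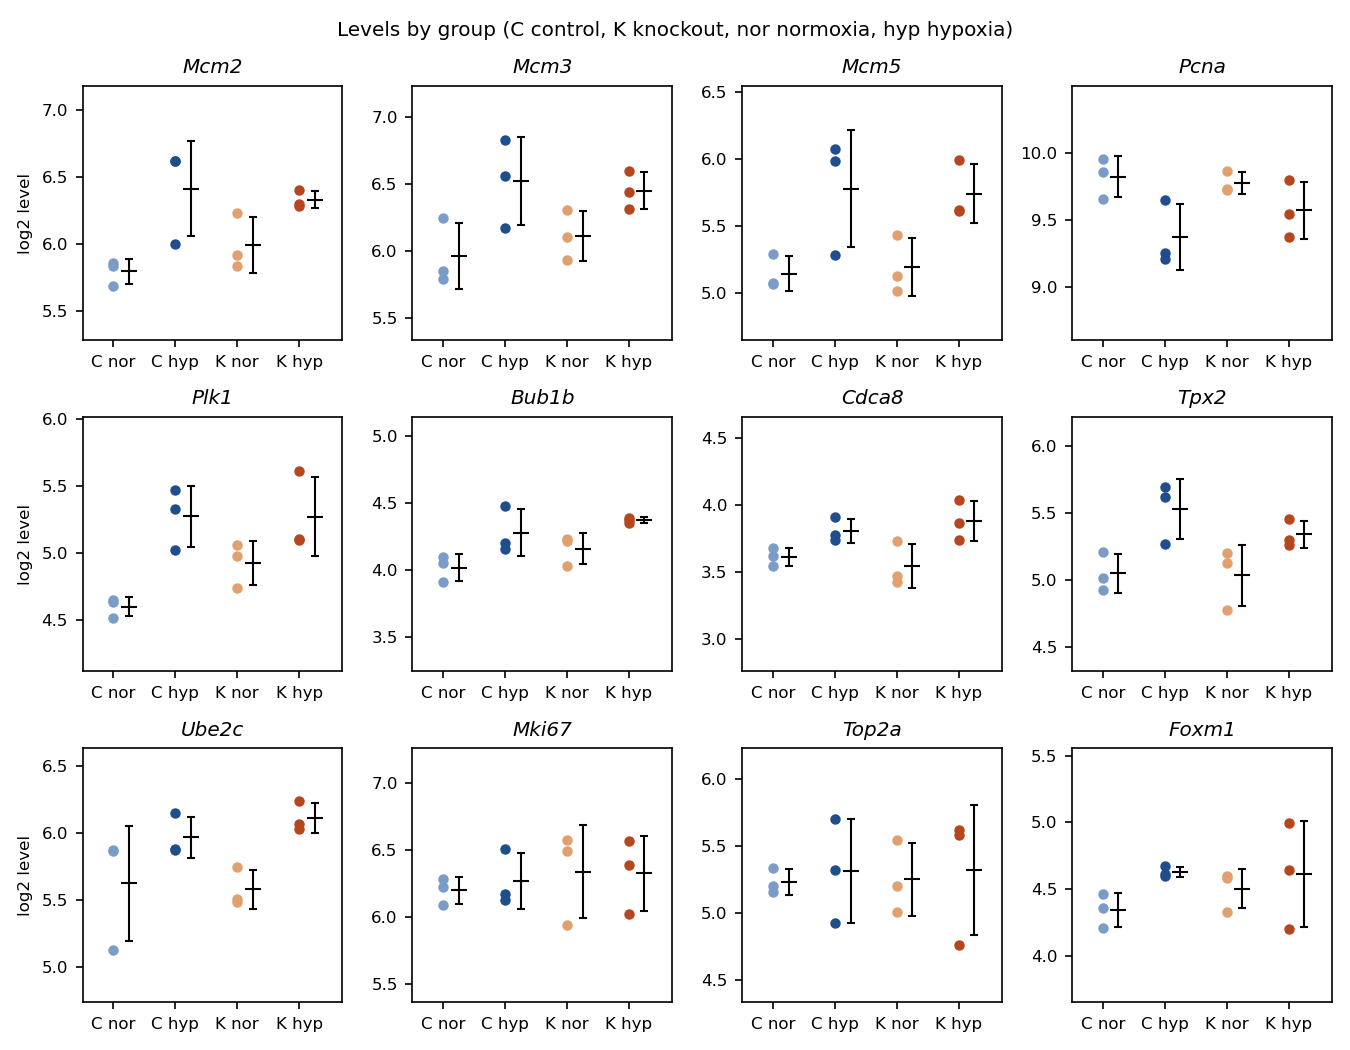
Log2 levels of 12 cell cycle genes in 4 groups of 3 arrays: the 9 that passed the averaged test, and Mki67, Top2a and Foxm1 for comparison. Dots are arrays, and the dash with bars beside them is the group mean with its SD. All panels span the same range of log2 units. Hypoxic dots sit above normoxic ones in both genotypes without overlap for Mcm2, Plk1, Bub1b, Cdca8 and Tpx2, and overlap widely for Mki67 and Top2a.

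None of the 3 genes of nucleotide supply passed the averaged test. Rrm1, the large subunit of ribonucleotide reductase, came nearest, and it read 6.61, 6.63 and 6.71 in normoxic controls, 6.98, 7.11 and 6.83 in hypoxic controls, 6.83, 6.71 and 6.74 in normoxic knockouts and 6.74, 6.87 and 7.13 in hypoxic knockouts. Control groups did not overlap, and in knockouts the lowest hypoxic array lay among the normoxic ones. The averaged difference was 0.24 ± 0.08 (adjusted p = 0.055). Rrm2, the small subunit that is made in S phase, differed by 0.32 ± 0.19 (adjusted p = 0.30), with arrays of 1 group up to 0.90 apart. Tyms, thymidylate synthase, differed by 0.56 ± 0.22 in controls (adjusted p = 0.13) and by -0.02 ± 0.22 in knockouts (adjusted p = 0.99).

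Of the 8 measured genes of mitotic cyclins, kinases and the spindle checkpoint, 2 rose in the averaged comparison. Plk1, the Polo kinase that drives entry into mitosis, read 4.51, 4.63 and 4.65 in normoxic controls, 5.33, 5.47 and 5.02 in hypoxic controls, 5.06, 4.74 and 4.97 in normoxic knockouts and 5.10, 5.10 and 5.61 in hypoxic knockouts. Hypoxic and normoxic arrays did not overlap in either genotype, and all 3 normoxic knockouts lay above all 3 normoxic controls. Plk1 had the smallest p of the 35 genes, with differences of 0.67 ± 0.15 in controls (a 1.60-fold rise, adjusted p = 0.020), 0.35 ± 0.15 in knockouts (adjusted p = 0.38) and 0.51 ± 0.11 averaged (adjusted p = 0.011).

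Bub1b encodes BUBR1, a kinase of the spindle checkpoint, and read 3.91, 4.10 and 4.05 in normoxic controls, 4.16, 4.48 and 4.20 in hypoxic controls, 4.23, 4.03 and 4.22 in normoxic knockouts and 4.38, 4.39 and 4.35 in hypoxic knockouts. The groups did not overlap in either genotype, although normoxic and hypoxic arrays were close. Averaged, Bub1b differed by 0.24 ± 0.07 (adjusted p = 0.045). Bub1, its relative at the kinetochore, read 3.99, 3.56 and 3.58 in normoxic controls, 3.43, 3.48 and 3.24 in hypoxic controls, 3.62, 3.70 and 3.45 in normoxic knockouts and 3.42, 3.60 and 3.64 in hypoxic knockouts. In controls all 3 hypoxic arrays lay below the normoxic ones, with a difference of -0.33 ± 0.13 (adjusted p = 0.12) that did not pass the test, and in knockouts the groups overlapped. The 2 checkpoint genes therefore stood on opposite sides of 0 in controls.

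Ccnb2, cyclin B2, read 4.88, 4.94 and 4.78 in normoxic controls, 5.34, 5.29 and 4.82 in hypoxic controls, 5.12, 4.74 and 4.70 in normoxic knockouts and 5.23, 5.10 and 5.40 in hypoxic knockouts. In each genotype 1 array kept the groups from separating, hypoxic control 4 in controls and normoxic knockout 1 in knockouts. Ccnb2 differed by an average of 0.34 ± 0.11 (adjusted p = 0.056). Aurkb, the Aurora kinase of the chromosomal passenger complex, differed by 0.32 ± 0.14 (adjusted p = 0.15). Its knockout groups did not overlap, and its normoxic controls spread from 3.95 to 4.91, more widely than the other 3 groups.

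Cdk1, the kinase that cyclins A and B activate, differed by 0.15 ± 0.14 (adjusted p = 0.56), and Ccna2, cyclin A2, by -0.02 ± 0.15 (adjusted p = 0.95). Aurka, the Aurora kinase of the spindle poles, read 4.12, 4.30 and 4.20 in normoxic controls, 4.71, 4.73 and 4.24 in hypoxic controls, 4.29, 4.43 and 4.59 in normoxic knockouts and 4.36, 4.43 and 4.35 in hypoxic knockouts. It was higher in hypoxic controls 1 and 2 than in any normoxic control, and the knockout arrays of both oxygen states lay within 0.30 of each other. The differences were 0.35 ± 0.13 in controls (adjusted p = 0.099) and -0.06 ± 0.13 in knockouts (adjusted p = 0.92).

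Of the 6 genes of chromosomes, kinetochores and the passenger complex, Cdca8 rose in the averaged comparison. Cdca8 encodes Borealin, which helps to bring the passenger complex to centromeres. It read 3.61, 3.54 and 3.68 in normoxic controls, 3.74, 3.77 and 3.91 in hypoxic controls, 3.73, 3.43 and 3.47 in normoxic knockouts and 3.86, 3.73 and 4.04 in hypoxic knockouts. The groups did not overlap in either genotype, by 0.06 in controls and by less than 0.01 in knockouts. The averaged difference was 0.27 ± 0.07 (adjusted p = 0.035). Birc5, which encodes Survivin of the same complex, had readings near the bottom of the array's range and differed by 0.19 ± 0.07 (adjusted p = 0.069).

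The kinetochore genes Cenpe and Cenpf differed by -0.13 ± 0.09 and 0.05 ± 0.08 (adjusted p = 0.39 and 0.73). Mki67 read 6.29, 6.22 and 6.09 in normoxic controls, 6.50, 6.13 and 6.17 in hypoxic controls, 6.58, 6.50 and 5.94 in normoxic knockouts and 6.02, 6.39 and 6.57 in hypoxic knockouts. Top2a read 5.15, 5.34 and 5.20 in normoxic controls, 5.70, 5.32 and 4.92 in hypoxic controls, 5.54, 5.20 and 5.01 in normoxic knockouts and 4.76, 5.62 and 5.58 in hypoxic knockouts. For both genes the arrays of different groups were interleaved, and hypoxic knockout 2 was among the lowest. The spread of Top2a in hypoxic knockouts, with an SD of 0.48, was the largest of the 35 genes in that group.

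Of the 6 spindle and cytokinesis genes, Tpx2 rose. Tpx2 encodes the protein that activates Aurora A and nucleates spindle microtubules, and it read 4.93, 5.21 and 5.02 in normoxic controls, 5.70, 5.62 and 5.27 in hypoxic controls, 5.21, 4.78 and 5.13 in normoxic knockouts and 5.30, 5.27 and 5.46 in hypoxic knockouts. The groups did not overlap in either genotype, and in controls hypoxic array 4 lay 0.06 above the highest normoxic one. The differences were 0.48 ± 0.14 in controls (a 1.39-fold rise, adjusted p = 0.046), 0.31 ± 0.14 in knockouts (adjusted p = 0.39) and 0.39 ± 0.10 averaged (adjusted p = 0.022).

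Kif20a, a kinesin of the central spindle, read 3.92, 3.83 and 3.77 in normoxic controls, 4.42, 4.18 and 4.10 in hypoxic controls, 4.36, 4.00 and 3.69 in normoxic knockouts and 4.16, 4.10 and 4.41 in hypoxic knockouts. The control groups did not overlap and the knockout groups did. Its averaged difference was 0.30 ± 0.11 (adjusted p = 0.087). The kinesins Kif11 and Kif23 differed by -0.06 ± 0.07 and 0.09 ± 0.10, the microtubule bundler Prc1 by 0.28 ± 0.16 and the spindle protein Nusap1 by -0.04 ± 0.10, none of which passed the test (adjusted p from 0.30 to 0.86).

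Of the last 3 genes, 2 act with the anaphase promoting complex, which ends mitosis by marking proteins for destruction. Ube2c, its ubiquitin conjugating enzyme, read 5.13, 5.87 and 5.86 in normoxic controls, 5.87, 5.88 and 6.14 in hypoxic controls, 5.74, 5.51 and 5.48 in normoxic knockouts and 6.06, 6.24 and 6.03 in hypoxic knockouts. Hypoxic and normoxic knockouts did not overlap, while in controls normoxic array 1 lay far below the others and arrays 2 and 4 lay with the hypoxic ones. The differences were 0.34 ± 0.18 in controls (adjusted p = 0.24), 0.53 ± 0.18 in knockouts (adjusted p = 0.21) and 0.44 ± 0.13 averaged (adjusted p = 0.037). With the clock covariate described below, the averaged value turned to -0.18. Cdc20, an activator of the complex, differed by 0.28 ± 0.12 (adjusted p = 0.13). Foxm1, the transcription factor of G2 and M phase genes, differed by 0.19 ± 0.12 (adjusted p = 0.30), with the highest and the lowest of all 12 arrays both among the hypoxic knockouts.

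Within controls alone, 3 of the 35 genes rose, Mcm2, Plk1 and Tpx2, and 0 fell. That is 8.57%, beside 5.36% of all genes called higher and 11.5% called in either direction, a share near the background. Hypoxic controls lay above normoxic controls without overlap in 13 genes and below in 2, against 14.0% and 13.7% of all genes. Those 13 were 37.1% of the 35. Within knockouts, limma called 0 of the 35 genes, against 1.14% of all genes, and 6 genes (17.1%) had an unadjusted p under 0.05, against 12.6% of all genes. Hypoxic knockouts lay above normoxic knockouts without overlap in 9 genes and below in 0, against 10.9% and 8.97% of all genes.

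The 2 hypoxia comparisons use different arrays, and their values can be set side by side. The change was above 0 in both genotypes for 23 of the 35 genes (65.7%), against 34.2% of all genes. Mcm2, Plk1, Bub1b, Cdca8 and Tpx2 were higher without overlap of groups in both, and 5 of 35 stands beside 4.68% of all genes. Bub1b and Cdca8 were low in level, with means of 4.21 and 3.71 beside a median of 4.55 over all values. The median change of the 35 genes was 0.28 in controls and 0.12 in knockouts, beside 0.01 and 0.00 over all genes. The plot of changes by genotype shows most control points to the right of the knockout points, with intervals that overlap.

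**Figure D3:**
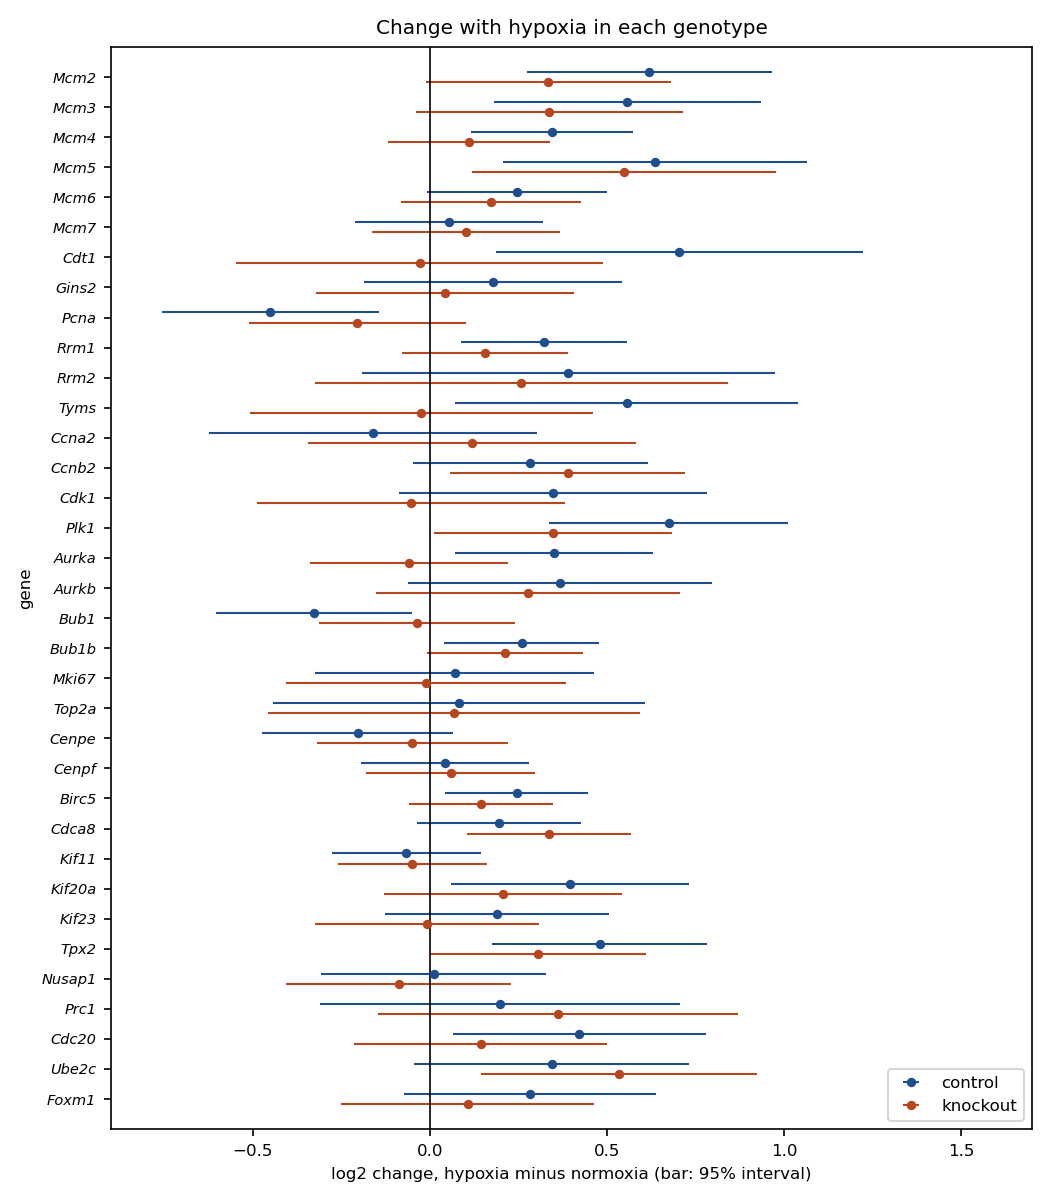
Change of 35 cell cycle genes with hypoxia, in log2 units, in controls (blue) and knockouts (orange), with limma's 95% intervals from 3 arrays per group. In controls 30 of 35 points lie above 0 and in knockouts 24, and the intervals of the 2 genotypes overlap for every gene.

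Whether the response differed by genotype was tested as an interaction, the change in knockouts minus that in controls. Limma called 0 of the 35 genes, against 0.00405% of all genes, and 2 (5.71%) had an unadjusted p under 0.05, against 8.25% of all genes. These were Aurka, at -0.41 ± 0.18 (adjusted p = 0.60), and Cdt1, at -0.73 ± 0.33 (adjusted p = 0.61). The interaction lay below 0 for 24 of the 35 genes, against 50.2% of all genes, with a median of -0.10. A single gene's interaction had a 95% interval that reached 0.47 to either side at the median. In 28 of the 35 genes that reach was wider than the control change itself. There, an interaction just the size of the control change, a full loss, would not have reached an unadjusted p under 0.05. Aurka and Cdt1 were among these 28 genes. They reached it because their interactions were larger in size than their control changes of 0.35 and 0.70. A call needed an adjusted p over all genes, which asks for more. A full loss could therefore have been missed in the other genes too.

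Knockouts and controls were also compared within each oxygen state. This asks whether endothelial loss of Nfat5 and tamoxifen, which cannot be told apart, moved these genes at all. In normoxia limma called 0 of the 35 genes, against 0.00405% of all genes, and 0 had an unadjusted p under 0.05, against 7.26% of all genes. Plk1, Mcm4 and Birc5 were higher in all 3 normoxic knockouts than in the controls, and 3 of 35 stands beside 5.46% of all genes. The difference of Plk1 was 0.33 ± 0.15 (adjusted p = 0.70). The 95% intervals of the 35 genes ran from -0.56 at the lowest bound to 1.02 at the highest.

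In hypoxia limma called 0 of the 35 genes, against 0% of all genes, and 1 had an unadjusted p under 0.05, against 5.10% of all genes. That gene was Ccna2, which read 4.09, 4.77 and 4.45 in normoxic controls, 4.41, 4.06 and 4.36 in hypoxic controls, 4.85, 4.85 and 4.56 in normoxic knockouts and 4.40, 5.02 and 5.19 in hypoxic knockouts. All 3 normoxic knockouts lay above 2 of the 3 normoxic controls, and hypoxic knockouts 3 and 4 lay above all hypoxic controls while hypoxic knockout 2 did not. The difference in hypoxia was 0.60 ± 0.21 (adjusted p = 0.95). Tyms was lower in all 3 hypoxic knockouts than in the hypoxic controls, and 1 of 35 stands beside 5.19% of all genes.

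Averaged over oxygen, knockouts differed from controls in 0 of the 35 genes by limma, against 0% of all genes, and 1 had an unadjusted p under 0.05, against 4.26% of all genes. It was again Ccna2, at 0.46 ± 0.15 (adjusted p = 1.00).

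Arrays of 1 group differed from each other in the whole list at once. The mean log2 level of the 35 genes was 4.91, 4.92 and 5.02 in normoxic controls, 5.27, 5.26 and 5.05 in hypoxic controls, 5.19, 4.99 and 4.95 in normoxic knockouts and 5.05, 5.20 and 5.31 in hypoxic knockouts. Hypoxic control 4 and hypoxic knockout 2 were low in their groups, and normoxic knockout 1 was high. Hypoxic control 4 had the lowest reading of its group in 23 of the 35 genes (65.7%), against 28.1% of all genes. Normoxic knockout 1 had the highest reading of its group in 24 (68.6%), against 31.5% of all genes. The group SD of the 35 genes had a median of 0.19 in hypoxic controls, beside 0.14 over all genes.

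The mean of 3 Y-linked genes split the arrays into 2 sets, 6 between 2.98 and 3.26 and 6 between 5.34 and 6.69. The higher set held 4 of the 6 normoxic and 2 of the 6 hypoxic arrays, so Y-linked RNA was unequally spread over oxygen. It included hypoxic control 4 and hypoxic knockout 2, the 2 hypoxic arrays with the lowest cell cycle means. Among arrays low in Y-linked RNA, the mean of the 35 genes was 4.91 in normoxia and 5.27 and 5.26 in hypoxia in controls, and 5.19 in normoxia and 5.20 and 5.31 in hypoxia in knockouts. Among arrays high in it, the mean was 4.92 and 5.02 in normoxia and 5.05 in hypoxia in controls, and 4.99 and 4.95 in normoxia and 5.05 in hypoxia in knockouts. Each set holds a single array of 1 oxygen state in each genotype, and the difference was not tested within sets. With the Y-linked mean as a covariate, 4 of the 9 averaged calls were kept, Mcm5, Plk1, Ube2c and Pcna. Within the higher set this mean was 5.34 and 5.36 in the hypoxic arrays and 6.12 to 6.69 in the normoxic ones. The covariate thus follows oxygen as well as the split into sets, and the parts of the 2 cannot be told apart.

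**Figure D4:**
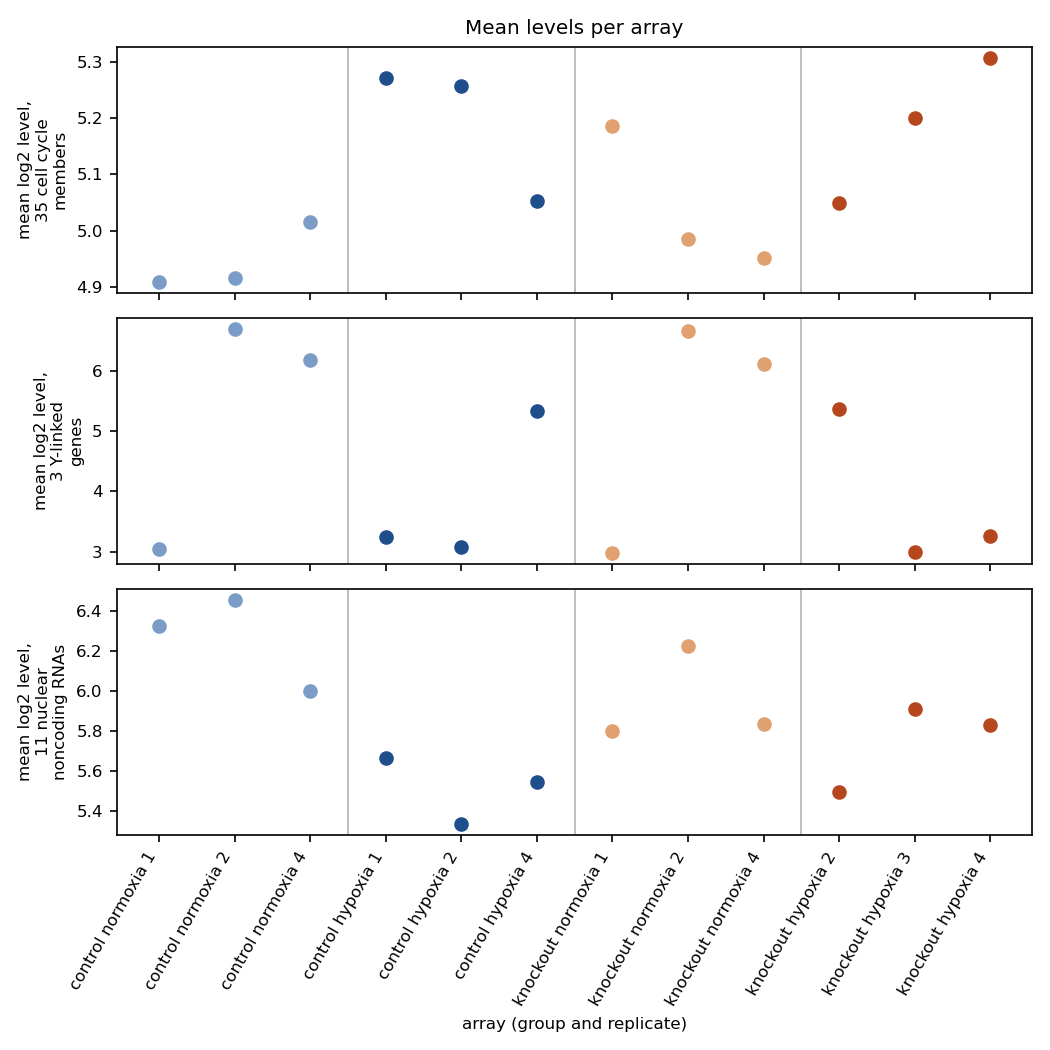
Mean log2 level per array of the 35 cell cycle genes (top), 3 Y-linked genes (middle) and 11 nuclear noncoding RNAs (bottom), in 12 arrays coloured by group. The cell cycle mean of hypoxic control 4 and hypoxic knockout 2, both high in Y-linked RNA, lies below that of the other hypoxic arrays, and the nuclear RNA mean is lower in hypoxic than in normoxic controls and overlaps between the knockout groups.

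Other measures moved with oxygen as well. The mean of 11 nuclear noncoding RNAs was 6.0 to 6.46 in normoxic controls and 5.34 to 5.67 in hypoxic controls. In knockouts it overlapped, at 5.80 to 6.23 in normoxia and 5.49 to 5.91 in hypoxia, and 6 of the 11 fell in the averaged comparison. The level of the clock gene Dbp minus that of Arntl, which swings with the time of day, was -0.10 to 3.72 in normoxic and 5.64 to 6.21 in hypoxic arrays. With either measure as a covariate, 0 of the 35 genes were called in controls or averaged, while the median averaged change of the 35 stayed at 0.21 and 0.20. Nearly all calls among all genes were lost as well, with counts given in the last section. Without a covariate, 11.5% of all genes were called in controls and 14.7% averaged. The count of 0 therefore does not set the 35 genes apart from other genes. The clock measure does not overlap between oxygen states, so its part and that of hypoxia cannot be told apart. In controls the nuclear RNA mean does not overlap between oxygen states either, so the same limit holds for it there. Ucp1, the marker of brown fat, read 9.31 in normoxic knockout 2 and 7.66 in hypoxic control 1 and at most 4.28 elsewhere. Without these 2 arrays, 2 averaged calls were kept, Plk1 and Pcna, and the median averaged change was 0.18.

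Of the 9 averaged calls, that of Plk1 was the least dependent on settings, kept in 19 of the 21 other settings in which it was tested, followed by Mcm5 in 18 and Mcm2 in 17. Tpx2 was kept in 13, Pcna and Ube2c in 10 and Mcm3 in 8 of 21, Cdca8 in 8 of 20 and Bub1b in 3 of 20. The control calls of Mcm2, Plk1 and Tpx2 were all lost without normoxic control 1, normoxic control 2 or hypoxic control 2, while 7 genes were called without hypoxic control 4 and 6 without normoxic control 4. The count of averaged calls, 9 with all arrays, was 3 without hypoxic control 2 or hypoxic knockout 4, 4 without normoxic control 1 or normoxic knockout 2, and 5 without normoxic knockout 4 or hypoxic knockout 2.

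Cell cycle genes outside the list were counted in 4 further lists. In the averaged comparison 14.7% of all genes were called in either direction and 7.27% were called higher. Of 43 other S phase genes, 6 rose and 0 fell, 14% of the list. They included Timeless, which protects replication forks, at 0.47 ± 0.09, the chromatin assembly subunits Chaf1b and Chaf1a at 0.59 ± 0.15 and 0.34 ± 0.09, the clamp loader subunit Rfc5 at 0.34 ± 0.09, and Pole, the catalytic subunit of DNA polymerase epsilon, at 0.33 ± 0.09 (adjusted p from 0.006 to 0.029). In controls 5 rose and 0 fell, beside 5.36% of all genes called higher and 6.14% called lower. In knockouts limma called 0, against 1.14% of all genes, with 1 at an unadjusted p under 0.05, against 12.6% of all genes.

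Of 64 other G2 and M phase genes, 4 rose and 2 fell, 9.38% of the list, which is below the 14.7% of all genes called. Ckap2, which stabilises spindle microtubules, rose by 0.35 ± 0.08, the histone chaperone Asf1b by 0.49 ± 0.13, Gtse1 by 0.31 ± 0.09 and the condensin subunit Ncapd2 by 0.27 ± 0.08. The inner kinetochore gene Cenpi fell, with a difference of -0.28 ± 0.08, and so did the chromatin gene Hmgb2, at -0.25 ± 0.07. In controls 4 rose and 3 fell, beside 5.36% of all genes called higher and 6.14% called lower. Among those that fell was Smc2, a condensin core subunit, at -0.65 ± 0.18 (adjusted p = 0.040).

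The next list held 23 genes, the G1 cyclins, their kinases, E2F factors and other regulators such as Mycn. Of these, 5 rose and 0 fell in the averaged comparison. That was 21.7% of the list, beside 14.7% of all genes called in either direction and 7.27% called higher. Ccnd3, cyclin D3, differed by 0.67 ± 0.14 (adjusted p = 0.010), Mycn by 0.51 ± 0.13, Ccne1, cyclin E1, by 0.37 ± 0.10, the repressor E2f8 by 0.34 ± 0.09 and the cyclin D kinase Cdk4 by 0.21 ± 0.06. The change of Mycn was 0.89 ± 0.19 in controls (adjusted p = 0.015) and 0.13 ± 0.19 in knockouts (adjusted p = 0.87), with an interaction of -0.76 ± 0.27 that did not pass (adjusted p = 0.57). E2f3, an activator of S phase genes, rose in controls by 0.48 ± 0.14 (adjusted p = 0.044) and had a change of -0.29 ± 0.14 in knockouts (adjusted p = 0.42), with an interaction of -0.77 ± 0.20 (adjusted p = 0.57). E2f1, also such an activator, rose in controls by 0.63 ± 0.16 (adjusted p = 0.032) and missed the threshold when averaged, at 0.38 ± 0.12 (adjusted p = 0.051).

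Of 24 genes listed as brakes of the cycle, not all of which only restrain it, 2 rose and 3 fell. That was 20.8% of the list beside 14.7% of all genes. The kinase inhibitors Cdkn1c and Cdkn1a rose by 0.60 ± 0.13 and 0.60 ± 0.15 (adjusted p = 0.011 and 0.020). The retinoblastoma gene Rb1 fell, at -0.67 ± 0.13 (adjusted p = 0.006), as did Btg2 at -0.56 ± 0.10 and the inhibitor Cdkn2b at -0.28 ± 0.06. The change of Cdkn2b was -0.03 ± 0.09 in controls (adjusted p = 0.87) and passed the test in knockouts, at -0.54 ± 0.09 (adjusted p = 0.017), while the interaction of -0.51 ± 0.13 did not pass (adjusted p = 0.57). Members of this list thus moved both ways. The median averaged change was 0.06 for the other S phase genes, 0.08 for the other G2 and M phase genes, 0.11 for the G1 genes and 0.04 for the brakes, beside 0.23 for the 35 genes.

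**Figure D5:**
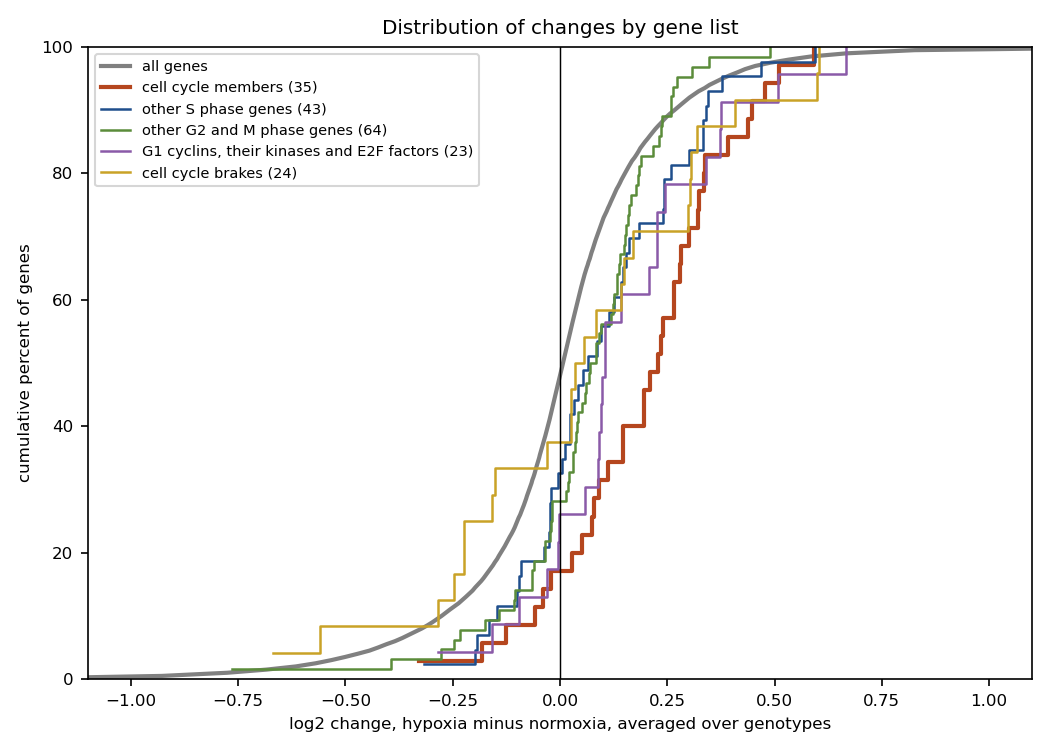
Cumulative percent of genes against the change with hypoxia averaged over genotypes, in log2 units, for 35 cell cycle genes, 4 other cell cycle lists and all 24704 genes. The curve of the 35 genes lies to the right of the curve of all genes through most of its course, with a median of 0.23. The curve of the brakes crosses that of all genes, and the other 3 lists have medians from 0.06 to 0.11.

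Markers of cell types moved with hypoxia too, and their part in the cell cycle result was not tested. The counts below stand beside 7.27% of all genes called higher and 7.40% called lower. In the averaged comparison 5 of 10 alveolar macrophage markers rose and 0 fell, and their summed linear level was 2805 to 3458 in normoxic controls and 3898 to 4660 in hypoxic controls, 3535 to 3669 in normoxic knockouts and 4423 to 4756 in hypoxic knockouts. Of 8 fibroblast markers 5 rose and 0 fell, with sums of 6736 to 7823 and 8728 to 8960 in the controls and 7285 to 7719 and 7993 to 8677 in the knockouts. Of 7 smooth muscle markers 3 rose and 0 fell, with sums of 2676 to 3168 and 3400 to 3916 in the controls and 3148 to 3514 and 3114 to 3553 in the knockouts. Of 11 endothelial markers 1 rose and 6 fell, and of 9 B cell markers 0 rose and 8 fell.

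The thymocyte list had 0 of 9 higher and 2 lower. Its defining recombinase genes stayed near the bottom of the array's range in all 12 arrays, Rag1 between 3.29 and 3.62 and Rag2 between 2.80 and 3.15, beside a lowest value of 2.41 in the whole table. Of 8 erythroid markers limma called 0, with summed levels of 567.6 to 1074 in normoxic and 793.1 to 870.8 in hypoxic controls. Plasma cell markers had 1 of 7 higher.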

How the data were processed

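Expression of whole mouse lung was measured on Affymetrix arrays. The authors deposited log2 values, 1 per probe set and array, made with RMA per the submitters' processing notes. No source used here names its version or a filter. RMA brings arrays to 1 distribution, here with a difference of 0 at every rank of the 12 arrays, so a change in total RNA cannot be seen. Of 25428 probe sets, 24705 had 1 symbol in the platform annotation and 723 none. For a symbol with more than 1 probe set, only the brightest by mean was used, and of the resulting 24704 genes 24672 had their Entrez number in a GRCm38 gene table.

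Computed here, limma 3.58.1 in R 4.3.3 fitted 4 group means to every gene (lmFit and eBayes, 8 residual and 3.61 prior degrees of freedom, no filter), with 7 contrasts adjusted by Benjamini-Hochberg over all genes. Every adjusted p in the text comes from limma. The script was tested on simulated data. The design text counts mice, so each array was treated as 1 mouse. Other settings were a trend, robust moderation, array weights, a filter on low means, a replicate block, 3 covariates, and leaving out arrays. The listed genes, the other lists and the tests were chosen with earlier results of these data known. All listed genes could be named, and of each other cell cycle list up to 6 genes with the smallest p, and of marker lists the first genes. Promoters came from RefSeq's GRCm38.p6 table, and the value table itself names no build.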

Additional observations from a re-analysis of the deposited data

How the results depend on the processing

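The number of cell cycle genes called in the averaged hypoxia comparison (9 as reported) stayed between 7 and 10 with a trend, robust moderation, array weights, the filter on low means and the replicate block. It fell to 4 with the Y-linked covariate, 2 without both arrays high in Ucp1, and 0 with the nuclear RNA or the clock covariate. Leaving out 1 array at a time gave 3 to 9, lowest without hypoxic control 2 or hypoxic knockout 4. The count in controls (3) rose to 8 with the filter on low means, where 21 genes were tested and 25% of all genes were called, fell to 1 with only the 2 groups compared in the fit and to 0 with the nuclear RNA or clock covariate, and ranged from 0 to 7 without 1 array. In knockouts it was 0 in every setting except without normoxic control 1, where it was 1, so leaving out 1 array gave 0 to 1. Genotype and interaction counts were 0 in all settings tried. The nuclear RNA and clock covariates left 2 and 7 genes called among all genes in controls, and 81 and 0 averaged. The median averaged change of the listed genes stayed above 0 throughout, from 0.18 to 0.28. The direction turned for Ube2c with the clock covariate, at -0.18, and for Smc2 in controls with the nuclear RNA covariate, at 0.062. For each of these the cause was not tested.

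Replicate numbers did not pair the arrays: deviations of same-numbered arrays correlated between -0.25 and 0.28 in 15 pairs, over 0.1 in 4, and in 10 of 30 comparisons of an array with another group, it correlated best with its own number. With the replicate block, 7 cell cycle genes were called averaged, 5 of them shared with the 9, with 2 in controls and 0 in knockouts. The number of arrays, 3 per group, sets the limit on what could be detected, and 14 of the genes had means under the median of all values.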
